A study of Mus musculus with 9 samples.

Results

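Metallothioneins and the genes that feed, sense and empty the zinc pool of the cell were followed in regenerating mouse liver as a set of 6 genes, chosen by name from the deposited gene table: *Mt1*, *Mt2*, *Mtf1*, *Slc39a14*, *Slc30a1* and *Slc30a10*. All 6 were found among the 43346 genes listed, and all 6 were among the 15024 genes kept by the filter on low counts. Bulk RNA-Seq was performed on whole liver of 12-week-old WT mice of the strain given as C57/BL6, in 3 groups of 3 libraries. The baseline group (0 h) was liver resected at a 70% partial hepatectomy from vehicle-treated mice. The other groups were liver remnants taken 40 h after that operation from vehicle-treated mice or from mice given NSC87877 (NSC), an inhibitor of the tyrosine phosphatase SHP2 that also acts on SHP1, at 7.5 mg/kg per dose with 2 doses a day. The labels place the first dose of either agent 12 h before surgery. Every 40 h liver had been through surgery and every mouse had received injections, and NSC-treated liver at 0 h was not analysed here. Resected and remnant lobes differ in site as well as in time, so those factors cannot be told apart.

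Zinc is held in the cytosol by metallothioneins, small cysteine-rich proteins that bind zinc and copper and that the liver makes in large amounts during stress, inflammation and regeneration. When free zinc rises, the transcription factor MTF-1, encoded by *Mtf1*, binds metal response elements in front of the metallothionein genes and *Slc30a1* and raises their transcription. Glucocorticoids also induce metallothioneins, and interleukin-6 induces both metallothioneins and *Slc39a14*. Transporters of the SLC39 (ZIP) family move zinc into the cytosol, and those of the SLC30 (ZnT) family move it out of the cytosol, to the outside or into organelles. *Slc39a14* encodes ZIP14, which carries zinc, manganese and iron into hepatocytes, *Slc30a1* encodes ZnT1, the zinc exporter of the cell surface, and *Slc30a10* encodes an exporter of manganese.

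The sequences in front of the zinc-responsive members are shown to mark letter matches to the element that MTF-1 reads. Its core was searched as TGCACNC and TGCGCNC on both strands, and the hits stand in capitals below, with both strands and overlapping hits counted. The sequences come from RefSeq on GRCm38.p6, where 5 of the 6 members matched an entry, all but *Slc39a14*, and each shows the 250 bases before the annotated start. *Mt1* is chr8:94178839-94179088, *Mt2* is chr8:94172368-94172617 and *Slc30a1* is chr1:191906531-191906780, all on the plus strand. The line named Mt1 start gives the first 30 bases from the start of *Mt1*, chr8:94179089-94179118.
Mt1: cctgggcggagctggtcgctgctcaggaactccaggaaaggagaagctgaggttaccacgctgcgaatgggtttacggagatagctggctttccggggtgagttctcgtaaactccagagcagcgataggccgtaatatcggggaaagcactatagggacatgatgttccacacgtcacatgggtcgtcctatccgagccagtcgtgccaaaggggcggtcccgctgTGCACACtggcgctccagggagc
Mt1 start: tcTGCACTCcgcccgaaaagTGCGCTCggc
Mt2: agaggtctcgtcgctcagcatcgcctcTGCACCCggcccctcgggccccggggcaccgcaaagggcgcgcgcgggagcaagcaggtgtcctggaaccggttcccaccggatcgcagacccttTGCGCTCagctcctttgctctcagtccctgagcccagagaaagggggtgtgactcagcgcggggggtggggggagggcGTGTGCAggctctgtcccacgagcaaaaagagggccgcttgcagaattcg
Slc30a1: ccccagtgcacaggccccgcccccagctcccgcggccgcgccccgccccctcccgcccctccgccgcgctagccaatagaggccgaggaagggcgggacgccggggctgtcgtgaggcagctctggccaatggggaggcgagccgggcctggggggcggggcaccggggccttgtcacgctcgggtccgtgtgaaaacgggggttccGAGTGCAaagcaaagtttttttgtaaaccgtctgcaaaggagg
*Mt1* had 1 core in the 250 bases, from 23 to 17 bases before the start, and 2 more in the first 30 bases after it. *Mt2* had 3 cores in the 250 bases, *Slc30a10* had 3 of which 2 overlap, *Slc30a1* had 1 and *Mtf1* had 0. Of the 32851 promoters in the RefSeq table, 21.4% held at least 1 core in the 250 bases and 1.26% held at least 3. Over the full window of 300 bases, which takes in the first bases of the transcript, *Mt2* had 4 cores, *Mt1* and *Slc30a10* 3 each and *Slc30a1* 2, while 1.97% of all windows had at least 3. These are matches of letters. GENCODE M21 lists 3 transcripts of *Mt1* on GRCm38, which start at 94179082, 94179211 and 94179241, so the bases just before the later starts lie outside the sequences shown. For *Mt2* it lists transcripts that start at 94172664 and 94172860, and the bases just before these starts lie outside as well. The counts of cores before and after a start therefore hold for the RefSeq starts used here.

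*Mt2* (ENSMUSG00000031762) lies at chr8:94172618-94173567 in the deposited table, with *Mt1* (ENSMUSG00000031765) 5521 bases downstream of its end at chr8:94179089-94180325. *Mtf1* (ENSMUSG00000028890) lies at chr4:124802104-124849800, *Slc39a14* (ENSMUSG00000022094) at chr14:70303469-70351425, *Slc30a1* (ENSMUSG00000037434) at chr1:191906767-191913247 and *Slc30a10* (ENSMUSG00000026614) at chr1:185454848-185468762. Antisense genes overlap *Mtf1*, *Slc30a1*, *Slc30a10* and *Mt2* in GENCODE M21. The libraries keep strand, but whether the counting used it is not given in the sources used here, so reads of these genes and of their overlapping partners may not be fully separated.

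Between 23997363 and 42887589 fragments were assigned to genes per library, and levels are given as CPM, the counts scaled to a common library size. At these depths the detection limit of 3 counts lay at 0.07 to 0.125 CPM. The 8 hepatocyte markers summed to 95980 to 132400 CPM in every library, and pancreas markers to at most 20.7 CPM. In whole tissue, fewer cells of a type and less RNA per cell cannot be told apart. The labels number the replicates of a group without naming mice, and the paper describes 3 biological replicates per group. P-values therefore measure the spread between these samples, which includes any technical part. Baseline replicate 2 stood apart from the other baseline livers for several members. The counts of passing genes in each list that its removal changed, with some fold changes, are given beside the results they touch.

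Levels of different genes were compared per length, as FPKM, the fragments of a gene scaled by its length and by the library total. At baseline the order was *Mt1* at 564 ± 430 FPKM (SD, n = 3), *Mt2* at 461 ± 384, *Slc39a14* at 30.8 ± 9.37, *Slc30a10* at 8.61 ± 4.33, *Slc30a1* at 5.82 ± 0.477 and *Mtf1* at 1.71 ± 0.0911. *Mt1* and *Mt2* overlapped in range, as did *Slc30a10* and *Slc30a1*, and the other neighbours in this order did not. The sensor gene was the least abundant member and the metallothioneins the most abundant. In the vehicle livers at 40 h *Mt1* ranked 23 to 30 and *Mt2* 26 to 29 among all genes by FPKM, against 61 to 234 and 70 to 338 at baseline. In the NSC livers *Mt1* ranked 58 to 130 and *Mt2* 40 to 153. Together the 2 genes took 0.0231% to 0.107% of all counts at baseline, 0.193% to 0.28% in vehicle livers at 40 h and 0.0411% to 0.12% in NSC livers, so that the vehicle livers did not overlap with either other group.

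*Mt1* and *Mt2* were higher in all 3 vehicle livers at 40 h than in any baseline liver, and both were lower in all 3 NSC livers than in any vehicle liver at 40 h. *Mt1* stood at 219.6, 591 and 139 CPM in baseline replicates 1, 2 and 3. Its level was 875, 1599 and 1061 CPM in the vehicle livers at 40 h, and 444, 460.3 and 205 CPM in the NSC livers. *Mt2*, its neighbour and the second metallothionein of the liver, stood at 181, 518 and 99.5 CPM at baseline. In the vehicle livers at 40 h it reached 951, 1512 and 1202 CPM, and in the NSC livers 642, 582 and 181 CPM. For both genes the range of the NSC livers overlapped with that of baseline, and baseline replicate 2 and NSC replicate 3 lay far from the others of their groups.

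**Figure D1:**
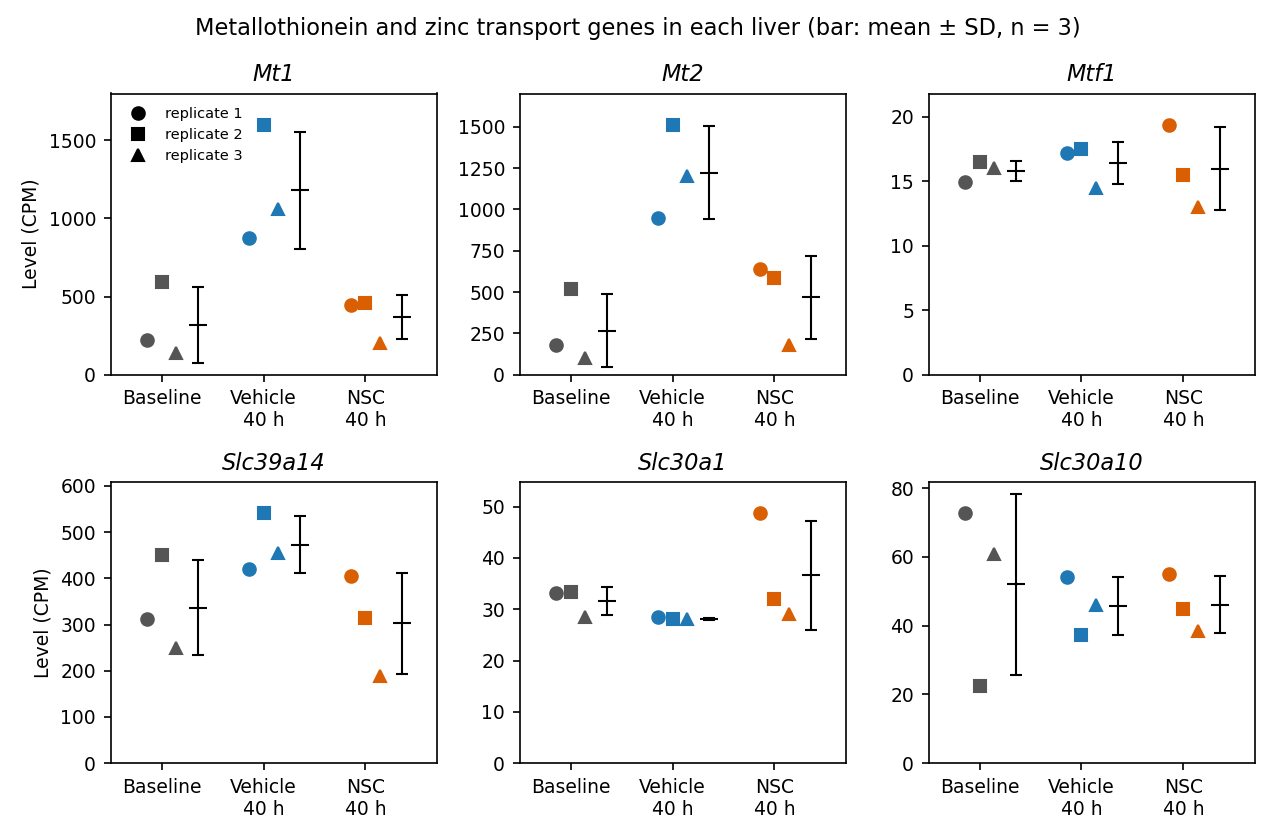
Level of each gene in CPM (linear axis from 0) in the 9 livers. Each point is 1 liver, its shape gives the replicate number, and the bar beside each group is the mean ± SD of 3 livers. The vehicle livers at 40 h lie above all others for *Mt1* and *Mt2*, from 875 to 1599 CPM for *Mt1*, and baseline replicate 2 is high for *Mt1*, *Mt2* and *Slc39a14* and low for *Slc30a10*.

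*Mt1* rose 3.72-fold from baseline to 40 h in vehicle-treated mice (log2 fold change 1.90, 95% interval 0.60 to 3.19, SE 0.56, adjusted p = 0.0428, edgeR quasi-likelihood test with Benjamini-Hochberg adjustment over all genes). It also exceeded the study's threshold of 1.5 on the log2 scale, which together with an adjusted p under 0.05 is named a call here. *Mt2* was 4.59-fold higher (log2 fold change 2.20, interval 0.60 to 3.80, SE 0.69), with an adjusted p of 0.0552 that did not pass. Of the 6 members 1 passed in the upward direction, against 12.7% of all genes tested, and 0 passed in the downward direction, against 11% of all genes. The call was met by 1 of 6 members, against 7.22% of all genes. The groups did not overlap for 2 members that were higher, *Mt1* and *Mt2*, and for 1 that was lower, *Slc30a1*, against 24.2% and 22% of all genes. For *Slc30a1* the gap was very small, with 28.44 CPM in the lowest baseline liver and 28.38 CPM in the highest vehicle liver. A median log2 fold change of 0.27 over the members stood beside 0.01 over all genes tested.

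The call of *Mt1* was narrow. It held without baseline replicate 2, where the log2 fold change was 2.72 (adjusted p = 0.00236, edgeR), and without NSC replicate 3. It was lost without any one of baseline replicates 1 and 3, vehicle replicates 1, 2 and 3 at 40 h, or NSC replicates 1 and 2, with log2 fold changes of 1.55 to 2.08 and adjusted p-values of 0.0544 to 0.128. *Mt2* passed without baseline replicate 2 (log2 fold change 3.12, adjusted p = 0.00853, edgeR) and without NSC replicate 3 (2.20, adjusted p = 0.0339).

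In NSC-treated mice neither metallothionein passed the test against the same 3 baseline livers. *Mt1* had a log2 fold change of 0.22 (interval -1.03 to 1.48, adjusted p = 0.780, edgeR) and *Mt2* one of 0.82 (interval -0.73 to 2.36, adjusted p = 0.379). Of the 6 members 0 passed upward and 0 downward, against 18.2% and 16.5% of all genes, and 0 were called, against 8.13%. None had an unadjusted p under 0.05, against 6796 of the 15024 genes tested, and DESeq2 likewise passed 0 members, against 5719 of these genes. Without baseline replicate 2, *Mt2* passed with a log2 fold change of 1.74 (adjusted p = 0.043, edgeR) and *Mt1* stood at 1.05 (adjusted p = 0.0695). Both comparisons with baseline share those 3 livers, so their difference is read from the direct comparison of the 40 h groups.

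The direct comparison of NSC with vehicle at 40 h asked whether the drug changed these genes in the regenerating remnant. *Mt1* was 3.19-fold lower with NSC (log2 fold change -1.67, interval -2.96 to -0.39, SE 0.56, adjusted p = 0.172, edgeR) and *Mt2* was 2.61-fold lower (-1.38, interval -2.95 to 0.18, SE 0.67, adjusted p = 0.301). These differences did not pass, and their intervals reach from close to 0 to a change of nearly 3 log2 units. Of the 6 members 0 passed upward, where 0% of all genes did, and 0 passed downward, where 0.0399% did. The call was met by 0 members, against 0.02% of all genes. An unadjusted p under 0.05 was found for 2 members, *Mt1* and *Slc39a14*, against 2929 of the 15024 genes tested. All later counts at an unadjusted p under 0.05 in the direct comparison stand beside the same 2929 genes. DESeq2, which passed 758 genes in this comparison, passed 0 members. All later DESeq2 counts in the direct comparison stand beside the same 758 genes. The groups did not overlap for 3 members that were lower with NSC, *Mt1*, *Mt2* and *Slc39a14*, against 12.2% of all genes, and for 1 that was higher, *Slc30a1*, against 10.3%. The median log2 fold change was -0.34 over the members and 0.02 over all genes.

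**Figure D2:**
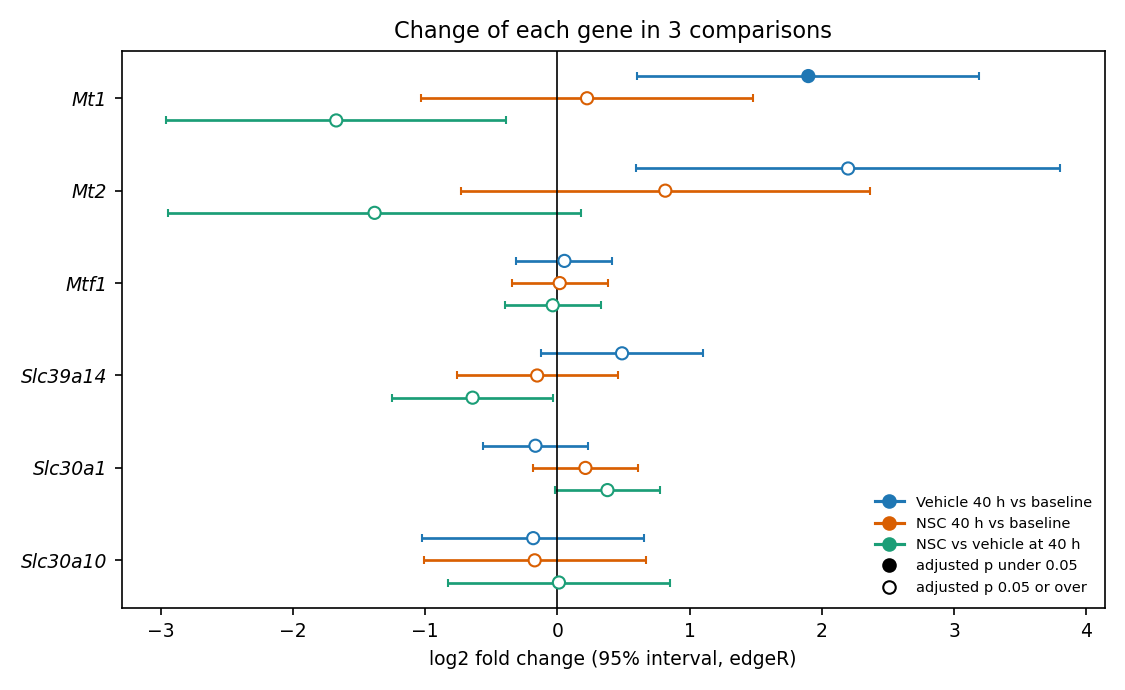
The log2 fold change of each gene (horizontal axis, in log2 units) with its 95% interval from the edgeR fit, in 3 comparisons shown by colour. Filled points have an adjusted p under 0.05, which is met by *Mt1* in vehicle livers at 40 h against baseline (1.90) and by no other point. The intervals of *Mt1*, *Mt2* and *Slc30a10* are wide and those of *Mtf1* narrow.

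The balance of the 2 metallothioneins was lower in all livers at 40 h than at baseline. In every baseline liver *Mt1* was the higher of the pair per length, with an *Mt1* to *Mt2* ratio of FPKM of 1.25, 1.17 and 1.43 in replicates 1, 2 and 3. The ratio was 0.948, 1.09 and 0.909 in the vehicle livers at 40 h and 0.712, 0.814 and 1.16 in the NSC livers. All 6 ratios at 40 h lay below the 3 baseline ratios. The difference in log2 ratio was -0.39 for vehicle and -0.55 for NSC against baseline, each with p = 0.1 (2-sided exact permutation test, n = 3 against 3, adjusted over 3 comparisons to 0.15), which is the smallest p these group sizes allow. Between NSC and vehicle it was -0.16 (exact permutation test, p = 0.5, adjusted 0.5), with overlapping ranges, and it lay between -0.36 without NSC replicate 3 and -0.0082 without NSC replicate 1.

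**Figure D3:**
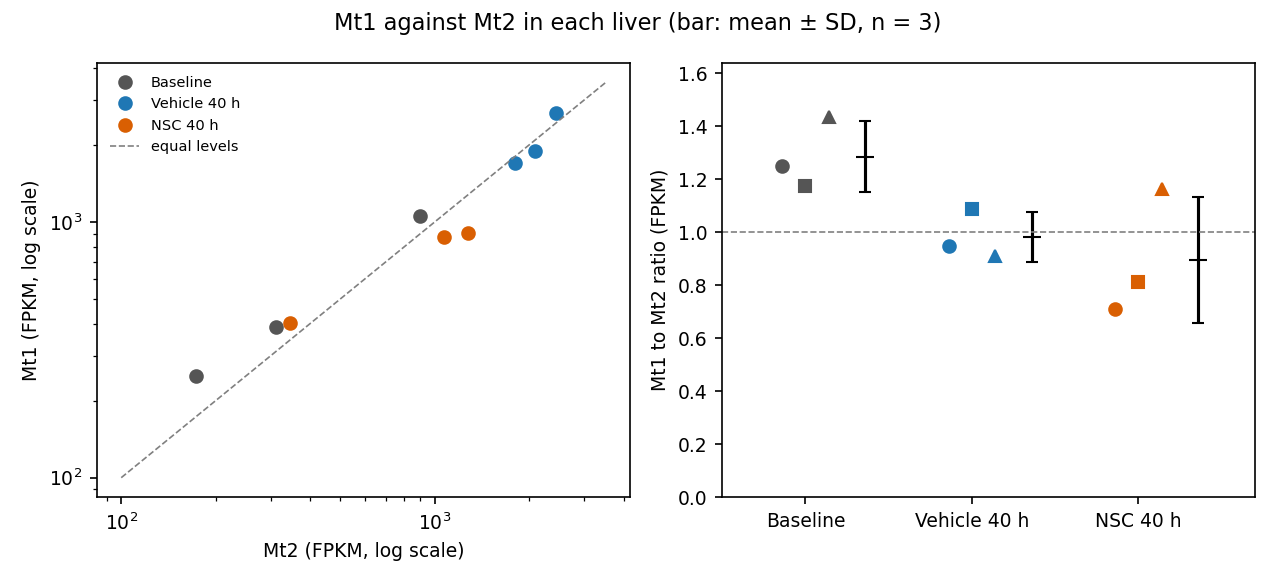
Left, *Mt1* against *Mt2* in FPKM on log axes, 1 point per liver, with a dashed line of equal levels. Right, the ratio of *Mt1* to *Mt2* in each liver with the mean ± SD of 3 livers. Baseline ratios lie from 1.17 to 1.43 and all others below them, from 0.712 to 1.16.

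*Mt3* and *Mt4*, the metallothioneins of brain and of stratified epithelia, were close to absent. *Mt3* had 0 counts in each of the 3 baseline libraries, 8, 16 and 2 counts in the vehicle libraries at 40 h and 0, 1 and 0 in the NSC libraries. *Mt4* had 0, 1 and 0 counts at baseline, 3, 2 and 1 in vehicle livers at 40 h and 1, 0 and 0 with NSC. Neither gene was kept by the filter. In a fit of all genes with at least 1 count, *Mt3* passed in vehicle livers at 40 h against baseline (adjusted p = 0.00938, edgeR) and did not pass between NSC and vehicle (adjusted p = 0.136). Reads shared among related metallothionein genes could not be traced, and their part in these few counts was not tested.

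*Mtf1*, which encodes the zinc sensor, stayed within a narrow range in all groups. It stood at 14.9, 16.5 and 16.0 CPM at baseline, 17.2, 17.5 and 14.5 in vehicle livers at 40 h and 19.4, 15.5 and 13.0 with NSC. The 3 ranges overlapped, the log2 fold changes were 0.05, 0.02 and -0.04 in the 3 comparisons, and the interval of the direct one ran from -0.40 to 0.33. Its adjusted p-values were 0.851, 0.948 and 0.927 (edgeR). The sign turned between settings in both comparisons with NSC. For vehicle against baseline the value stayed positive, from 0.0064 to 0.14 over 18 settings.

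*Slc39a14*, the importer ZIP14, stood at 312, 449.9 and 248 CPM at baseline. Its level was 421, 541 and 456 CPM in the vehicle livers at 40 h and 406, 314 and 189 CPM in the NSC livers. The vehicle livers at 40 h lay above all NSC livers, while baseline replicate 2 fell within their range. The log2 fold change was 0.49 for vehicle against baseline (interval -0.12 to 1.10, adjusted p = 0.228, edgeR), -0.15 for NSC against baseline (adjusted p = 0.699) and -0.64 for NSC against vehicle (interval -1.25 to -0.03, adjusted p = 0.237). Without baseline replicate 2 the first of these was 0.75 (adjusted p = 0.0866, edgeR) and the second 0.11 (adjusted p = 0.797), and without baseline replicate 3 the first was 0.32 (adjusted p = 0.529). The value for NSC against vehicle was -0.91 without NSC replicate 1 (adjusted p = 0.071, edgeR) and -0.40 without NSC replicate 3 (adjusted p = 0.409). Within each group the livers took the same order for *Slc39a14* as for *Mt2*, with baseline replicate 2, vehicle replicate 2 and NSC replicate 1 highest. Over the 9 libraries, Pearson's r of log2 CPM was 0.978 between *Mt1* and *Mt2*, 0.879 between *Mt1* and *Slc39a14* and 0.854 between *Mt2* and *Slc39a14*. These values describe libraries that share group and scaling and carry no test.

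Neither exporter among the members passed the test in any of the 3 comparisons. *Slc30a1* stood at 33.1, 33.3 and 28.44 CPM at baseline and at 28.38, 28.0 and 28.2 CPM in the vehicle livers at 40 h. In the NSC livers it was 48.7, 32.0 and 29.1 CPM, all above the vehicle range, with replicate 1 far above the others. The vehicle livers at 40 h were almost identical, since a spread as small as theirs (SD 0.01 of log2 CPM) was undercut by 0.126% of all genes. The log2 fold change was -0.17 for vehicle against baseline (adjusted p = 0.546, edgeR), 0.21 for NSC against baseline (adjusted p = 0.392) and 0.38 for NSC against vehicle (interval -0.02 to 0.77, adjusted p = 0.275). Without NSC replicate 1 the last value was 0.11. That liver also had the highest sum of the 6 endothelial markers, 226 CPM, against 127 and 143 CPM in the other NSC livers. The sum was 109.7 to 177 CPM in vehicle livers at 40 h and 173 to 180.1 CPM at baseline. Singly, *Stab2* and *Kdr*, named after their values were seen, were not highest in it. *Stab2* stood at 45.4 CPM there and 51.2 CPM in vehicle replicate 2 at 40 h, and *Kdr* at 39.1 CPM there and 39.2 CPM in baseline replicate 1. Of these markers 0 of 6 passed in the direct comparison (edgeR), with 2 at an unadjusted p under 0.05. The part of the endothelial RNA in the *Slc30a1* values was not tested.

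*Slc30a10*, the manganese exporter, stood at 72.7, 22.5 and 60.9 CPM at baseline. Its level was 54.3, 37.3 and 45.9 CPM in the vehicle livers at 40 h and 55.2, 44.8 and 38.5 CPM with NSC. Baseline replicate 2 was the lowest of all 9 livers and the other baseline livers were the highest, so the 40 h livers lay between them. The log2 fold change was -0.18 for vehicle (interval -1.02 to 0.65, adjusted p = 0.763, edgeR), -0.17 for NSC (adjusted p = 0.748) and 0.01 between the 40 h groups (interval -0.83 to 0.85, adjusted p = 0.990). Without baseline replicate 2 it was -0.54 for vehicle and -0.53 for NSC, with adjusted p-values of 0.0783 and 0.0645.

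The spread within groups was itself uneven among the members. At baseline the SD of log2 CPM was 1.07 for *Mt1*, 1.21 for *Mt2* and 0.91 for *Slc30a10*, against a median of 0.2 over all tested genes, and 98.3%, 99% and 96.9% of genes had a smaller one. *Mtf1* and *Slc30a1* varied little at baseline, with 11.5% and 29.9% of genes having a smaller SD. In the vehicle livers at 40 h *Mt1* and *Mt2* were closer together, at 0.44 and 0.33. NSC livers were again wider, at 0.66 and 1.02. The highest baseline value exceeded the lowest 4.27-fold for *Mt1* and 5.21-fold for *Mt2*, and 1.83-fold and 1.59-fold in vehicle livers at 40 h.

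Baseline replicate 2 also carried more RNA of several genes that glucocorticoids or acute phase signals induce, and these genes are named here after their values were seen. *Fkbp5*, a feedback regulator of the glucocorticoid receptor, stood at 231 CPM in it and at 41.5 and 39.0 CPM in baseline replicates 1 and 3. *Zbtb16*, another glucocorticoid-induced gene, stood at 75.2 against 17.1 and 9.27 CPM. *Lcn2*, an acute phase protein gene, stood at 197 against 20.3 and 27.1 CPM, and *Saa2* at 2752 against 322 and 313 CPM. *Hamp*, which encodes hepcidin, stood at 1161 against 245 and 409 CPM. Some other genes of this kind did not stand out, as *Tat* stood at 3680 against 4308 and 3137 CPM and *Fgb* at 5873 against 5958 and 6212 CPM. *Sgk1*, also on the glucocorticoid-responsive list, went the other way, at 18.3 against 45.65 and 33.4 CPM, the lowest of all livers. The part of these signals in the metallothionein levels of this liver was not tested.

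Both signals were then followed across the groups as whole lists. Of 10 glucocorticoid-responsive genes, 0 rose and 4 fell in vehicle livers at 40 h, against 12.7% and 11% of all genes. In NSC livers 0 rose and 3 fell, against 18.2% and 16.5%. These counts were 1 and 1 in vehicle livers and 0 and 3 in NSC livers without baseline replicate 2. *Tat*, an enzyme of tyrosine breakdown, fell by 1.25 on the log2 scale in vehicle livers (adjusted p = 0.0036, edgeR) and by 1.93 in NSC livers (adjusted p = 0.000225). *Pck1*, the enzyme that commits carbon to glucose synthesis, fell by 0.84 (adjusted p = 0.0307) and 1.97 (adjusted p = 0.000271), and *Per1*, a clock gene, fell by 2.24 in NSC livers (adjusted p = 0.00197). *Tsc22d3* fell by 0.91 (adjusted p = 0.0256, edgeR) and *Nr3c1* by 0.42 (adjusted p = 0.0413) in vehicle livers. In NSC livers their values were -0.18 and -0.02 (adjusted p = 0.616 and 0.909). Between the 40 h groups both were higher with NSC, by 0.73 and 0.40 (adjusted p = 0.168 and 0.154). There *Tat*, *Pck1* and *Per1* were lower with NSC, by 0.69, 1.13 and 1.23 (adjusted p = 0.161, 0.085 and 0.134). The median over the list was -0.63 and -1.004, against 0.01 over all genes in both, and without baseline replicate 2 it was -0.55 and -0.15, with 4 genes higher and 6 lower in NSC livers. Of 16 acute phase genes, 11 rose and 0 fell in each comparison with baseline, with medians of 1.5 and 1.65. The rising genes numbered 14 with vehicle and 13 with NSC without baseline replicate 2, and the medians were then 1.95 and 1.94. *Hpx*, the heme-binding hemopexin, rose by 1.73 and 1.68 on the log2 scale (adjusted p = 0.00117 and 0.000918, edgeR). *Orm1* rose by 1.68 and 1.95. *Fga*, *Fgb* and *Fgg* rose by 1.605, 1.37 and 1.395 with vehicle and by 1.12, 0.91 and 1.12 with NSC (adjusted p for the 4 genes 0.000427 to 0.0121). *Socs3* rose by 2.81 and 1.62 (adjusted p = 0.000231 and 0.002215). It was 1.19 lower with NSC than with vehicle, without overlap (adjusted p = 0.0917), while *Hpx*, *Orm1*, *Fga*, *Fgb* and *Fgg* overlapped between those groups. Over the whole list, 3 genes were lower and 1 higher with NSC without overlap, against 12.2% and 10.3% of all genes. The next 5 genes are named after their values were seen. *Lbp* and *Itih4* passed with vehicle only and were 1.16 and 0.70 lower with NSC than with vehicle (adjusted p = 0.085 and 0.187, edgeR). *Saa1* and *Orm2* passed with NSC only, and *Saa3* was 3.325 higher with NSC than with vehicle (adjusted p = 0.165). In the direct comparison 0 genes of either list passed in edgeR, with 5 and 4 at an unadjusted p under 0.05, against 2929 of all 15024 genes tested. DESeq2 passed 0 higher and 2 lower of the glucocorticoid list, and 0 higher and 2 lower of the acute phase list. In that comparison it passed 758 of all 15024 genes tested. Without baseline replicate 2, edgeR passed 1 acute phase gene there as higher with NSC. Leaving out 1 of baseline replicates 1, 2 and 3 or vehicle replicate 3 left *Pck1* short of the test's threshold in vehicle livers (adjusted p = 0.0542 to 0.11). With single libraries left out, *Tsc22d3* fell short there in 4 of 9 fits (adjusted p = 0.0731 to 0.0995, edgeR) and *Nr3c1* in 7 of 9 (0.06085 to 0.121). *Fgb* with NSC fell short without NSC replicate 2 (adjusted p = 0.0539) and after correction for GC content.

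The rest of the zinc transporter families gave a wider view than the 3 transporters among the members. Of 14 SLC39 genes 13 were tested. In vehicle livers at 40 h 1 rose, 1 fell and 11 did not pass, against 12.7% of all genes that rose and 11% that fell. The same counts held in NSC livers, against 18.2% and 16.5%. With baseline replicate 2 left out, 1 rose and 0 fell with vehicle, and 0 rose and 1 fell with NSC. *Slc39a1*, a zinc importer of the cell surface, stood at 71.5 to 78.2 CPM at baseline, at 109 to 121 CPM in vehicle livers at 40 h and at 91.7 to 100.4 CPM in NSC livers, and the 3 groups did not overlap. It rose by 0.65 on the log2 scale with vehicle (adjusted p = 0.00378, edgeR) and 0.37 with NSC (adjusted p = 0.0383). Between the 40 h groups its log2 fold change was -0.28 (adjusted p = 0.258, edgeR), and 12.2% of all genes were lower with NSC without overlap. *Slc39a4*, the importer that takes up dietary zinc in the gut, stood at 49.5, 56.0 and 54.2 CPM at baseline, at 38.7, 38.0 and 20.1 CPM with vehicle and at 16.0, 23.0 and 24.8 CPM with NSC. It fell by 0.72 on the log2 scale with vehicle (adjusted p = 0.047) and by 1.33 with NSC (adjusted p = 0.00188). *Slc39a1* no longer passed with NSC without any one of baseline replicates 1, 2 and 3, vehicle replicate 1 and NSC replicates 1 and 2 (adjusted p = 0.0562 to 0.125). *Slc39a4* no longer passed with vehicle without any one of baseline replicates 1, 2 and 3, vehicle replicates 2 and 3 and NSC replicates 2 and 3 (adjusted p = 0.0536 to 0.117). In the direct comparison 10 of 13 SLC39 genes were lower with NSC and 0 passed in edgeR or DESeq2, with 5 at an unadjusted p under 0.05 and a median log2 fold change of -0.33.

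Of 10 SLC30 genes 8 were tested, and 4 of them rose in both 40 h groups, with 0 that fell. The shares of all genes that rose were 12.7% with vehicle and 18.2% with NSC, and those that fell 11% and 16.5%. Without baseline replicate 2, 4 rose with vehicle and 5 with NSC, and 0 fell. *Slc30a5*, which loads zinc into enzymes of the secretory pathway, stood at 32.3 CPM in each baseline liver, at 70.7, 72.4 and 85.8 CPM in vehicle livers at 40 h and at 74.2, 74.4 and 62.1 CPM in NSC livers. It rose by 1.24 and 1.12 on the log2 scale (adjusted p = 0.000135 and 0.000167, edgeR). *Slc30a7*, a Golgi zinc transporter, rose by 0.74 and 0.76 (adjusted p = 0.00542 and 0.00316), and *Slc30a4*, a transporter of intracellular vesicles, by 0.60 and 1.11 (adjusted p = 0.0163 and 0.000422). *Slc30a3*, known as the zinc transporter of synaptic vesicles, was low throughout, at 0.429 to 0.6 CPM at baseline, 2.92 to 3.86 CPM with vehicle and 1.29 to 3.29 CPM with NSC, and rose by 2.65 and 2.12 (adjusted p = 0.000583 and 0.00137). The members *Slc30a1* and *Slc30a10*, whose proteins export metal across the cell surface, were among the 4 that did not pass. *Slc30a4* no longer passed with vehicle without baseline replicate 3 or vehicle replicate 1 or 3 (adjusted p = 0.0538 to 0.0728). In the direct comparison 0 of 8 passed in edgeR or DESeq2, with 1 at an unadjusted p under 0.05.

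**Figure D4:**
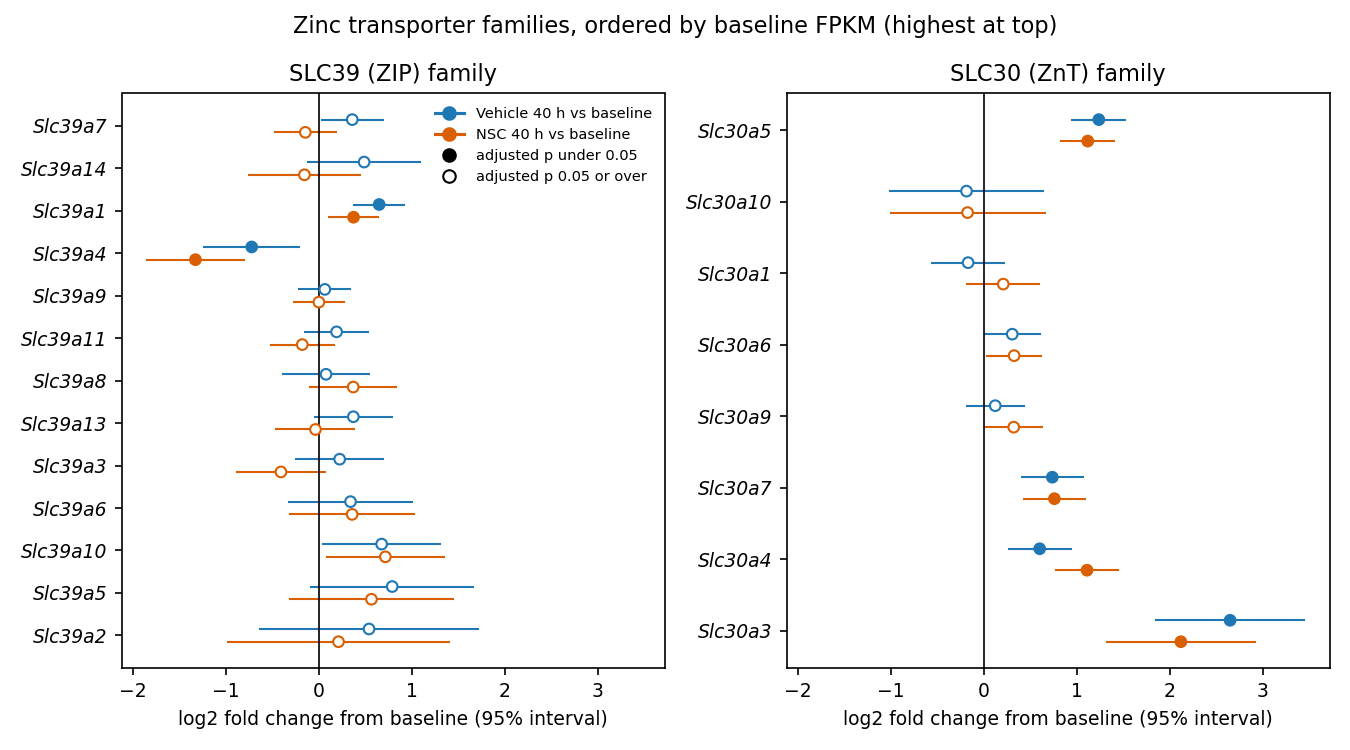
The log2 fold change from baseline (horizontal axis, in log2 units) of the tested SLC39 genes (left) and SLC30 genes (right) in vehicle and NSC livers at 40 h, with 95% intervals from the edgeR fit. Genes are ordered by baseline FPKM, and filled points have an adjusted p under 0.05. *Slc30a5*, *Slc30a7*, *Slc30a4* and *Slc30a3* lie to the right in both groups, from 0.60 to 2.65.

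Other genes linked to MTF-1 went several ways. Of 6 such genes 1 rose and 1 fell in vehicle livers at 40 h, against 12.7% and 11% of all genes. In NSC livers 2 rose and 1 fell, against 18.2% and 16.5%. Without baseline replicate 2, 1 rose and 2 fell with vehicle, and 1 rose and 0 fell with NSC. *Csrp1*, a LIM-domain protein gene, stood at 8.25 to 10.8 CPM at baseline, 22.5 to 23.7 CPM with vehicle and 20.4 to 27.4 CPM with NSC, and rose by 1.27 and 1.29 on the log2 scale (adjusted p = 0.000318 and 0.000197, edgeR). *Slc40a1*, which encodes the iron exporter ferroportin, stood at 82.4, 83.1 and 88.1 CPM at baseline and fell to 56.4, 47.3 and 39.1 CPM with vehicle (log2 fold change -0.83, adjusted p = 0.0172). With NSC it stood at 119, 61.6 and 78.9 CPM (log2 fold change 0.03, adjusted p = 0.927), and between the 40 h groups the difference was 0.86 (adjusted p = 0.0949). *Selenoh*, a selenoprotein gene listed as *2700094K13Rik*, rose by 2.18 in NSC livers (adjusted p = 0.0298), although replicate 1 stood at 3.63 CPM within the baseline range of 3.38 to 4.58 CPM and the others at 20.8 and 28.4 CPM. *Selenow*, another selenoprotein gene listed as *Sepw1*, fell by 0.57 with NSC (adjusted p = 0.0406). With single libraries left out, the test was no longer passed in 3 of 9 fits for *Slc40a1* with vehicle (baseline replicate 3 and vehicle replicates 2 and 3, adjusted p = 0.0539 to 0.0775), in 6 of 9 for *Selenoh* (baseline replicates 1, 2 and 3, vehicle replicate 1 and NSC replicates 2 and 3, 0.0501 to 0.0977) and in 7 of 9 for *Selenow* (all but vehicle replicate 2 and NSC replicate 3, 0.0535 to 0.138). In the direct comparison 0 of 6 passed in edgeR, with 2 at an unadjusted p under 0.05. In DESeq2 1 of them passed, against 758 of all 15024 genes tested.

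Copper, which metallothioneins also bind, was covered by 10 genes. In vehicle livers at 40 h 1 rose and 3 fell, against 12.7% and 11% of all genes. In NSC livers 1 rose and 2 fell, against 18.2% and 16.5%. Without baseline replicate 2, 1 rose and 2 fell in each 40 h group. *Cp*, the secreted copper carrier ceruloplasmin and itself an acute phase protein, stood at 1087 to 1442 CPM at baseline and rose by 1.14 and 1.05 on the log2 scale (adjusted p = 0.00552 and 0.00588, edgeR). *Atp7b*, the pump that delivers copper to ceruloplasmin and bile, fell by 0.72 and 0.91 (adjusted p = 0.00659 and 0.00133). *Ccs*, the copper chaperone of superoxide dismutase, fell by 0.62 and 0.83 (adjusted p = 0.00872 and 0.00127), and *Sod1*, that dismutase, fell by 0.58 with vehicle (adjusted p = 0.0459). *Sod1* no longer passed in 7 of the 9 fits that left out 1 library, all but those without NSC replicate 1 or 3 (adjusted p = 0.0648 to 0.136), and *Cp* did not pass with NSC after correction for GC content (log2 fold change 0.59, adjusted p = 0.0689). In the direct comparison 0 of 10 passed in edgeR or DESeq2, with 1 at an unadjusted p under 0.05.

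Markers of the other cells of the liver are given beside these values. Of all genes tested, 12.7% rose and 11% fell with vehicle, and 18.2% rose and 16.5% fell with NSC. Of 8 macrophage markers 1 rose with vehicle and 3 rose with NSC, and their summed level was 195 to 270.4 CPM at baseline, 183 to 332 CPM with vehicle and 336 to 551 CPM with NSC. Of 6 stellate cell markers 4 rose with vehicle and 0 with NSC, with sums of 73.3 to 79.9, 98.7 to 169 and 59.6 to 109.7 CPM. Of 8 neutrophil markers 5 were tested, of which 1 rose with vehicle and 3 rose with NSC, with sums of 2.17 to 7.17, 8.49 to 16.2 and 11.5 to 17.6 CPM. Of 5 tested cholangiocyte markers 4 rose with vehicle and 3 rose with NSC, with sums of 37.8 to 40.7, 76.0 to 115 and 79.1 to 122 CPM. Of 5 tested erythroid markers 1 fell in each, 2 of 8 hepatocyte markers fell with vehicle and 3 with NSC, and 1 of 6 endothelial markers fell with vehicle. When baseline replicate 2 was left out, 3 stellate cell markers rose with vehicle, 1 cholangiocyte marker rose with NSC, and 1 hepatocyte marker fell with vehicle and 2 with NSC. In the direct comparison 0 markers of any of these lists passed in edgeR, with 4 macrophage, 3 stellate, 2 hepatocyte, 2 cholangiocyte, 2 endothelial, 0 neutrophil and 0 erythroid markers at an unadjusted p under 0.05. Of all 15024 genes tested, 2929 had such a p. DESeq2 passed 3 macrophage markers as higher, and 2 stellate, 1 cholangiocyte and 1 hepatocyte markers as lower with NSC. In that comparison it passed 758 of all 15024 genes tested. The part of the mix of cells in the metallothionein differences was not tested.

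The genes most like the members across the 9 libraries were named by Pearson's r of log2 CPM, as a description over libraries that share groups and scaling. The mean of *Mt1* and *Mt2* was followed most closely by *Slc41a1*, a magnesium transporter gene (r = 0.969), then *9530080O11Rik* (0.963), *Fam110c* (0.953), *Slc37a1*, a sugar phosphate exchanger gene (0.951), and *Crybb3* (0.947). *Slc41a1* stood at 4.11, 8.55 and 4.19 CPM at baseline, at 10.4, 15.3 and 13.2 CPM with vehicle at 40 h and at 10.4, 7.71 and 5.36 CPM with NSC. *Slc30a10* was followed by *Clpx*, a subunit of a mitochondrial protease (r = 0.982), *Pxmp4* (0.956) and *Cpeb4* (0.953). *Clpx* shared the low value of baseline replicate 2, at 57.9 CPM there and 408 and 338 CPM in baseline replicates 1 and 3. *Slc30a1* was followed by *Pecam1* (0.947), *F8* (0.930) and *Sdpr* (0.926), of which *Pecam1*, an endothelial adhesion gene, stood at 27.4 CPM in NSC replicate 1 and at 11.2 to 16.1 CPM in the other livers. *Mtf1* was followed by *Elf4* (0.957), *Parvb* (0.953) and *Apbb1ip* (0.929), and *Slc39a14* by *Dst* (0.956), *Tns4* (0.953) and *Ccnl2* (0.950).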

How the data were processed

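Whole-liver RNA-Seq of 9 libraries, 3 each from baseline liver and from vehicle and NSC remnants at 40 h, was analysed from the deposited gene table. Per the labels and the methods, reads of strand-specific mRNA libraries were aligned with STAR 2.6.1 and assigned to genes with Subread 1.5.1 (featureCounts) within MAP-RSeq, and replicates were not pooled. The authors deposited raw counts per gene, which are not normalized, together with FPKM values. The deposited FPKM values equal the counts divided by gene length plus 1 and by the library total (largest relative difference 4.96e-10 for values above 1). The processing notes name a human build, whereas genes and coordinates in the table are mouse and match GRCm38. The labels and the methods differ on the first dose (12 h or 1 day before surgery).

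Counts were scaled by TMM factors in edgeR 4.0.16 (R 4.3.3), filtered with filterByExpr, and all 9 libraries were fitted together with a robust quasi-likelihood model that had the group as its only term. P-values of each comparison were adjusted over all genes tested by the Benjamini-Hochberg method. A gene passed at an adjusted p under 0.05 and was called when its absolute log2 fold change also exceeded 1.5, the thresholds of the study. Correlations and spreads used log2 CPM with a prior count of 2. DESeq2 1.42.0 served as an alternative test, and the ratio test and plots used scipy 1.17.1 and matplotlib 3.10.9 under Python 3.11.15. The procedure was tested on simulated data.

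The members and all gene lists were chosen with earlier results of these data known. The lists hold metallothioneins, SLC39 and SLC30 transporters, other genes linked to MTF-1, copper handling, glucocorticoid-responsive and acute phase genes, and markers of hepatocytes, other liver cells and pancreas. The text names the members, the genes of the pathway lists that passed (at most the 6 with the smallest p per list), *Mt3* and *Mt4*, and the genes most correlated with each member, other names being marked as chosen after their values were seen. The ratio of *Mt1* to *Mt2* was compared by exact permutation. Alternatives were other scaling (RLE factors, library size only), other count filters, fits of 2 groups, the replicate number as a block, correction for GC content (known for 99.2% of genes tested), DESeq2, and each library left out in turn. Between 23997363 and 42887589 counts per library and 3 livers per group set the precision, and the floor of 3 counts covers counting error only. No 2 libraries were duplicates, since the chi-square per gene within groups was 24.9 to 151.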

Additional observations from a re-analysis of the deposited data

How the results depend on the processing

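The fold changes of *Mt1* and *Mt2* kept their direction under all 17 alternatives in vehicle livers at 40 h against baseline (1.55 to 2.72 and 1.81 to 3.12 on the log2 scale) and in NSC against vehicle (-1.86 to -1.38 and -1.68 to -0.999), but the test of *Mt1* in the former passed in 9 of 18 fits, the reported one included (adjusted p = 0.00236 to 0.128), and that of *Mt2* in 5 of 18 (0.00853 to 0.154). The number of members that passed, and equally the number called, in vehicle livers against baseline was 1 as reported, 0 with all genes of at least 1 count or with only the 2 groups compared, 2 with correction for GC content or DESeq2, and 0 to 2 with 1 library left out. In NSC livers against baseline both were 0 as reported and 0 to 1 with 1 library left out, the 1 being *Mt2* without baseline replicate 2. With the replicate block both counts in vehicle livers were 2, with *Mt1* at 2.12 (adjusted p = 0.0029, edgeR) and *Mt2* at 2.54 (adjusted p = 0.0192). Over all genes, same-numbered samples did not deviate together (correlations -0.048 to 0.13), and no source says that they come from 1 mouse, so the number is not treated as a pairing. Among the members, replicate 2 was highest both at baseline and in vehicle livers at 40 h for *Mt1*, *Mt2*, *Mtf1* and *Slc39a14*. *Slc30a10* took the same order in both groups and *Slc30a1* did not. Whether these samples share mice is not known. Signs of members turned only where the reported log2 fold change lay from -0.18 to 0.22, and single libraries moved some of these values widely. In NSC against baseline *Slc30a1* was -0.0095 with GC correction, and in NSC against vehicle *Mtf1* was 0.10 with library size only and *Slc30a10* was -0.064 with GC correction. With 1 library left out, the ranges that crossed 0 were -0.54 to 0.13 for *Slc30a10* with vehicle against baseline. For NSC against baseline they were -0.13 to 1.05 for *Mt1*, -0.14 to 0.14 for *Mtf1*, -0.42 to 0.11 for *Slc39a14*, -0.049 to 0.35 for *Slc30a1* and -0.53 to 0.14 for *Slc30a10*. For NSC against vehicle they were -0.20 to 0.089 for *Mtf1* and -0.14 to 0.15 for *Slc30a10*. Library size scaling moved the median of all genes to 0.15 with NSC against baseline and 0.14 with NSC against vehicle. Over all genes, NSC against vehicle passed 6 genes as reported, 758 with DESeq2, 221 with all genes of at least 1 count, 11 with the replicate block, 1 with library size only, 0 with GC correction and 0 to 994 with 1 library left out. The cause of these shifts was not tested.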
